A study of Mus with 8 samples.

Results

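Adrenergic receptors are the cell surface receptors for noradrenaline and adrenaline, and 8 of their genes were looked for on arrays of mouse brown adipose tissue. A gene was taken where a probe set (the group of probes that reads 1 transcript) was annotated with that gene and no other, and of several such probe sets the one with the highest mean over the arrays was to be kept. This found 2 of the 8 among 30723 named genes, Adra1b (gene 11548, chromosome 11) and Adra2c (gene 11553, chromosome 5), each with 1 probe set. For the other 6, Adrb1, Adrb3, Adra1a, Adra1d, Adra2a and Adra2b, no probe set carried the name in the annotation used here, so they were not analysed here. The values below therefore describe an alpha-1 and an alpha-2 receptor and say nothing of the beta receptors.

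The arrays came from 4 mice labelled HILPDA KO and 4 labelled wild type (WT), all on a C57BL/6 background, with 1 array of interscapular brown fat per mouse. Hilpda encodes a lipid droplet protein known to inhibit adipose triglyceride lipase. The sources used here give neither the age of the mice, the cells in which Hilpda was deleted, nor diet and housing temperature. The design asks how loss of Hilpda affects brown fat, and that question is put here to the receptors and to the genes that carry their signal.

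In brown fat, sympathetic nerves release noradrenaline, and beta receptors on the adipocyte couple through the G protein Gs to adenylyl cyclase, cyclic AMP and protein kinase A, which drives lipolysis and heat production. Alpha-1 receptors such as the product of Adra1b couple through Gq to phospholipase C and calcium release. Alpha-2 receptors such as the product of Adra2c couple through Gi, which restrains adenylyl cyclase, and are also known as brakes on noradrenaline release from nerve endings. Adra1b is known as the main alpha-1 subtype of rodent liver and is also found in vascular smooth muscle and brain, and Adra2c is known chiefly from brain and sympathetic nerves.

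Several features of the arrays bear on every value below. Replicates 1 and 2 of both genotypes (set 1) had a median over named genes of 3.92 to 3.99 on the log2 scale, and replicates 3 and 4 (set 2) one of 4.92 to 4.96, so levels were compared within a set and tests carried the set as a block. Hilpda read 4.45, 4.37, 5.60 and 5.51 in KO replicates 1 to 4, against 4.37, 4.28, 6.00 and 5.92 in WT replicates 1 to 4. It was not lower than in WT in set 1 and was lower in both KO arrays of set 2, with a difference of -0.16 (SE 0.11; limma adjusted p = 0.983; two-sided exact permutation p = 0.278 within the sets), so directions refer to arrays labelled KO. The position of its probes with respect to the deletion is unknown here. The mice are labelled female, whereas Xist read 3.49 to 4.10 and 2 genes of the Y chromosome, Uty at 9.31 to 10.93 and Eif2s3y at 8.53 to 11.01, gave a clear signal on all 8 arrays. Brown adipocyte markers averaged 14.37 to 15.21 in KO and 14.39 to 15.19 in WT, and Ucp1, the uncoupling protein that defines brown fat, read 19.68 to 19.93 in KO and 19.73 to 19.87 in WT, at the upper end of the scale.

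Adra1b gave a weak signal on all arrays. It read 3.92 and 3.93 in KO replicates 1 and 2, against 3.65 and 3.64 in WT replicates 1 and 2. In set 2 it read 4.71 and 4.64 in KO replicates 3 and 4, against 4.58 and 4.56 in WT replicates 3 and 4. Both KO values lay above both WT values in each set, by a clear gap in set 1 and a narrow one in set 2. Group means over both sets were 4.30 ± 0.43 in KO and 4.11 ± 0.53 in WT (SD, n = 4 each), an SD that holds the difference between the sets.

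To judge how far such a reading stood above background, it was set against 1082 olfactory receptor genes, a family with mostly low signal outside the nose. Adra1b lay above 91.2% to 96.3% of them in the KO arrays and above 86.0% to 91.8% in the WT arrays. It passed their 95th percentile on 1 of 8 arrays, KO replicate 2, whereas 44.8% of all named genes passed it on every array. The reading exceeded the median of 23 control probe sets named as background by 1.01 to 1.56 in KO and by 0.70 to 1.45 in WT. Adra1b was thus not well above background in WT on any array. Its differences below are between signals that hold background, not fold changes of the transcript.

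Adra2c was dimmer still. It read 2.93 and 3.07 in KO replicates 1 and 2, against 2.92 and 2.97 in WT replicates 1 and 2. In set 2 it read 3.40 and 3.33 in KO replicates 3 and 4, against 3.35 and 3.34 in WT replicates 3 and 4. The genotypes overlapped in both sets, and the means were 3.18 ± 0.22 in KO and 3.15 ± 0.23 in WT (SD, n = 4 each). Adra2c lay above only 3.05% to 14.2% of the olfactory receptor genes in KO and above 3.14% to 13.6% in WT, below their median on all 8 arrays. Its distance above the control background median was 0.022 to 0.26 in KO and 0.0021 to 0.23 in WT. At this signal a difference between the genotypes could not be measured, and a transcript present at a low level cannot be told apart from none.

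**Figure D1:**
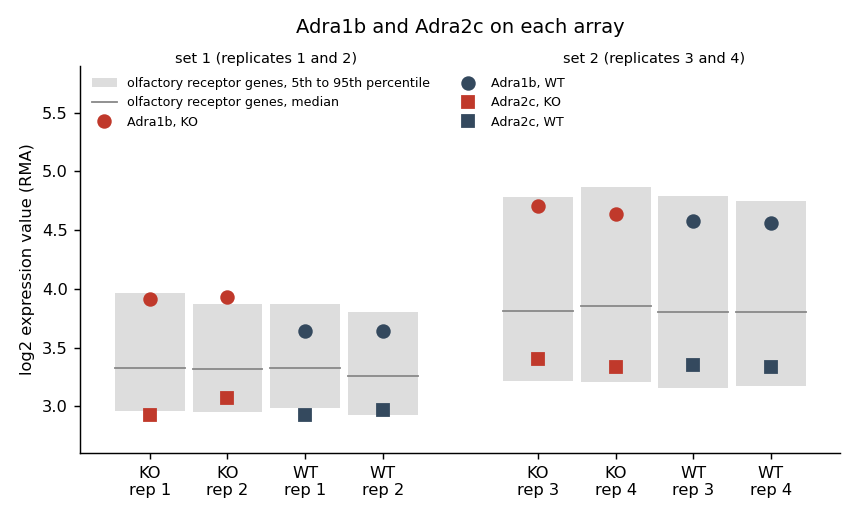
Log2 expression values of Adra1b (circles) and Adra2c (squares) on each of the 8 arrays, KO in red and WT in dark blue, with the 5th to 95th percentile (grey box) and median (grey line) of 1082 olfactory receptor genes on the same array. Adra1b lies near the top of the box and above it on KO replicate 2 alone, and Adra2c lies near its lower edge.

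The comparison of KO with WT called 0 of the 2 receptors at an adjusted p under 0.05 in limma with the set as a block, where 0% of all 30723 genes were called. At an unadjusted p under 0.05 there were 1483 genes, or 4.83%, and 1 of the 2 receptors. For Adra1b the difference on the log2 scale was 0.19 (SE 0.068; 95% confidence interval 0.033 to 0.35; unadjusted p = 0.024; limma adjusted p = 0.983), and KO was higher in each of the 2 sets. The two-sided exact permutation test within the sets gave p = 0.0556, the smallest that its 36 arrangements allow. With any 1 array of set 1 left out, the unadjusted p of Adra1b was 0.0674 to 0.0709. Both KO values lay above both WT values in each set in 2.86% of all genes, so Adra1b shared this pattern with 877 others.

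For Adra2c the difference was 0.038 (SE 0.066; 95% confidence interval -0.12 to 0.19; limma adjusted p = 0.999). The interval covers 0, and it also covers the difference found for Adra1b, so the data do not show that Adra2c was alike in the genotypes. The exact permutation test within the sets gave p = 0.444 for this gene. Without KO replicate 2 the difference was 0.0062.

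Within set 1 Adra1b was at 3.92 on average in KO and 3.64 in WT, a difference of 0.28 (SE 0.089; 95% confidence interval 0.069 to 0.49; limma adjusted p = 0.486). Within set 2 it averaged 4.67 in KO and 4.57 in WT, a difference of 0.10 (SE 0.089; 95% confidence interval -0.11 to 0.31; limma adjusted p = 0.666). Both SEs come from a spread pooled over all 8 arrays, so neither interval rests on its own set alone. Both receptors were among the genes not called in set 2, where 0.00325% of all genes passed, and in set 1, where 0% did. Taken set by set, both KO values lay above both WT values in 18.9% of all genes in set 1 and in 24% in set 2. The KO effect in set 2 minus that in set 1 was -0.18 (SE 0.13; limma adjusted p = 0.604), so the sets were not shown to differ in this gene. Over all genes that difference passed for 0.498%, and for 0 of the 2 receptors. Adra2c differed by 0.054 (SE 0.097) within set 1 and by 0.022 (SE 0.097) within set 2, and the 2 values differed from each other by -0.032 (SE 0.14; limma adjusted p = 0.957).

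**Figure D2:**
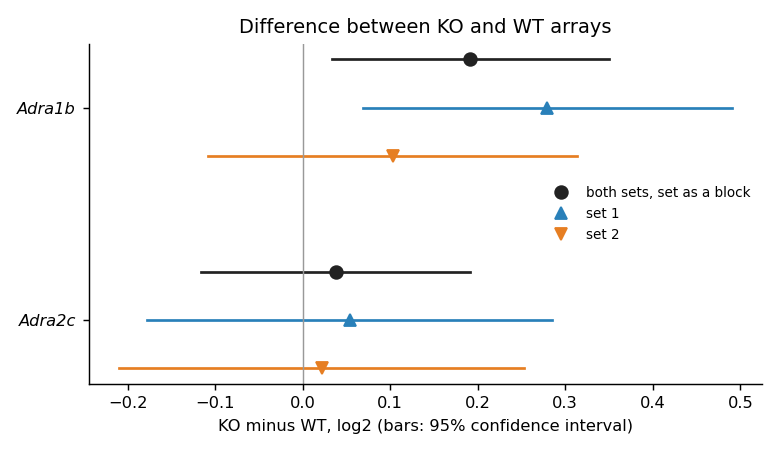
KO minus WT difference on the log2 scale for Adra1b and Adra2c, over both sets with the set as a block (circles), within set 1 (upward triangles) and within set 2 (downward triangles), with 95% confidence intervals from limma. All intervals, also those within a set, use the spread of all 8 arrays. The intervals of Adra1b lie above 0 over both sets and in set 1 and cover 0 in set 2. All 3 of Adra2c cover 0, and no adjusted p passed.

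Markers of hepatocytes, in which rodents express Adra1b, read higher in the KO arrays of set 1, though limma called 0 of 15 there, 0 of 15 in set 2 and 0 of 15 over both. The mean of 15 hepatocyte markers was 11.6 and 8.18 in KO replicates 1 and 2, against 7.79 and 5.74 in WT replicates 1 and 2, and all 15 of 15 were higher in KO. In set 2 the mean was 4.38 and 4.46 in KO, against 4.36 and 4.29 in WT, with 11 of 15 higher in KO. Among them Alb, which encodes the plasma protein albumin, stood at 19.2 and 15.8 in KO and 14.5 and 10.0 in WT in set 1, and at 4.99 to 5.23 in KO and 4.79 to 5.11 in WT in set 2. All 15 markers passed the olfactory receptor 95th percentile on every array of set 1, and 2 to 4 of them did so on the arrays of set 2. Adra1b showed its larger difference in set 1, where these markers were high, and in set 2, where they were near background, it differed by 0.10. Between the KO replicates of set 1 the marker mean ran from 8.18 to 11.6, while Adra1b stood at 3.92 and 3.93 on these arrays. The part of hepatocyte RNA in the difference was not tested, and in whole tissue a change in the share of a cell type and a change in RNA per cell cannot be told apart.

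**Figure D3:**
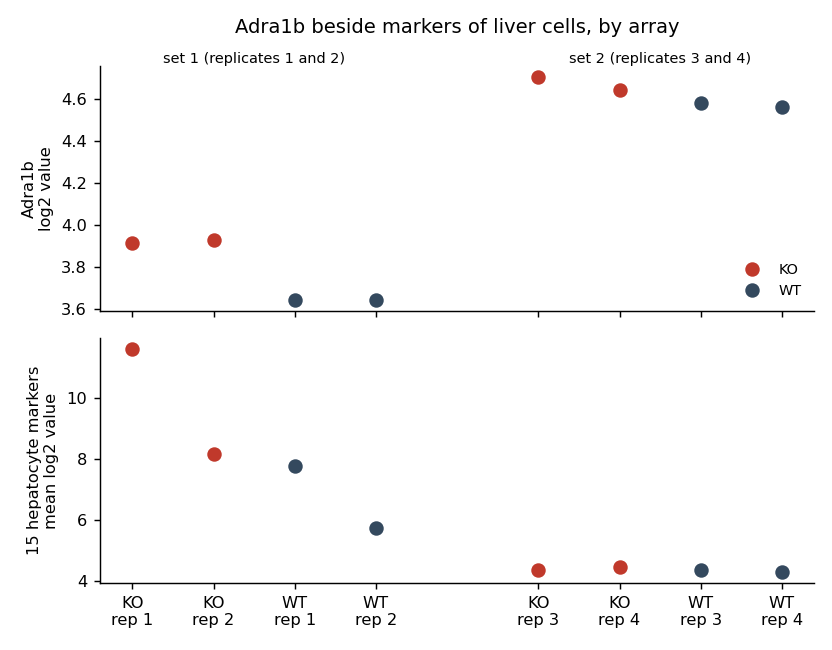
Log2 value of Adra1b (top) and the mean log2 value of 15 hepatocyte markers (bottom) on each array, KO in red and WT in dark blue. The hepatocyte mean is 5.74 to 11.6 in set 1 and 4.29 to 4.46 in set 2, while both Adra1b values of KO lie above both of WT in each set.

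Markers of other cells were also read. The 14 skeletal muscle markers averaged 6.24, 9.25, 5.68 and 10.9 in KO replicates 1 to 4, against 8.22, 7.70, 11.1 and 9.32 in WT replicates 1 to 4, with 0 of 14 higher in KO over both sets (median difference -1.03), 2 of 14 in set 1 (-0.11) and 0 of 14 in set 2 (-1.81). Limma called 0 of 14 in each of these, and KO replicate 3 was the lowest array and the only KO array of set 2 below both WT arrays. The part of muscle RNA in the differences given here was not tested. The 10 markers of smooth muscle and pericytes, which surround vessels and can express alpha-1 receptors, averaged 7.18, 7.39, 8.90 and 8.95 in KO replicates 1 to 4, against 7.28, 7.42, 9.06 and 9.26 in WT replicates 1 to 4. Their median difference was -0.070, with 0 of 10 called, and 4 of 10 were higher in KO in set 1 and 5 of 10 in set 2. The part of these cells in the difference of Adra1b was not tested. For sympathetic nerve and Schwann cells 7 of 10 markers were measured, and their median difference was -0.038, with 0 of 7 called. Th, tyrosine hydroxylase, which begins noradrenaline synthesis, and Dbh, dopamine beta-hydroxylase, which completes it, passed the olfactory receptor 95th percentile on 0 of 8 arrays. Th read 3.51 to 3.76 in KO and 3.44 to 3.88 in WT, and Dbh read 3.46 to 4.22 in KO and 3.28 to 4.00 in WT.

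Downstream of the receptors, 105 of 117 listed genes of adrenergic signalling were measured, and limma called 0 of them. At an unadjusted p under 0.05, 1 was higher and 4 were lower in KO, where all 30723 genes gave 766 higher and 717 lower. Within the sets 18 of the 105 reached that level in set 1 (5 higher in KO) and 31 in set 2 (16 higher), beside 2377 and 4627 of all 30723 genes. In both sets the share was larger among the 105 than among all genes, which was not tested. The lists were chosen with earlier results of these data known. Of the 105, 71 stood above background on all 8 arrays, beside 44.8% of all genes. The larger share is therefore not read as a result about adrenergic signalling. The median difference of the 105 genes was 0.010, beside 0.0075 for all genes. Both KO values lay above both WT values in each set in 3 of the 105 and below them in 3. Of all genes 2.86% and 2.44% did so. None of the differences that follow passed the test (limma adjusted p of at least 0.983), so they are given as values of the 3 members with the smallest unadjusted p in each list among those above background on all arrays.

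The partners of Adra1b in the Gq pathway gave 12 of 14 measured, 0 called and a median difference of 0.018. Gnaq and Gna11, the Gq-class alpha subunits that alpha-1 receptors engage, differed by -0.21 (SE 0.10) and -0.25 (SE 0.13; -0.13 without WT replicate 2). Gnaq differed by -0.014 in set 1 and -0.40 in set 2, and Gna11 by -0.32 and -0.18. Adra1b, near background, differed by 0.28 in set 1 and 0.10 in set 2. Prkca, a calcium-dependent protein kinase C activated downstream, read 5.51, 5.48, 6.72 and 6.96 in KO replicates 1 to 4, against 5.37, 5.45, 6.71 and 6.70 in WT replicates 1 to 4. Both KO values lay above both WT values in each set, as in 2.86% of all genes, though in set 2 with hardly any gap (6.72 against 6.71). The difference was 0.11 (SE 0.075; 0.060 without KO replicate 4).

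The Gi and Go list, through which Adra2c would signal, had all 5 members measured, 0 called and a median difference of -0.19, with 1 of 5 above 0. Gnao1, the alpha subunit of Go, differed by -0.49 (SE 0.19; -0.31 without KO replicate 4), with 6.90, 6.92, 8.45 and 7.98 in KO replicates 1 to 4, against 6.92, 7.10, 9.29 and 8.88 in WT replicates 1 to 4. The genotypes were apart in set 2 and overlapped in set 1. Gnai1 and Gnai2, inhibitory alpha subunits, differed by -0.25 (SE 0.11) and -0.19 (SE 0.19; -0.36 to -0.046 with 1 array left out). All 3 passed the olfactory receptor 95th percentile on all 8 arrays, which Adra2c did on 0 of 8.

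In the Gs, adenylyl cyclase and protein kinase A list 21 of 22 genes were measured, 0 were called and the median difference was -0.021. Gnas, which encodes the alpha subunit of Gs, differed by -0.30 (SE 0.12), the mean of -0.086 in set 1 and -0.52 in set 2. For Gnas, Adcy6 and Prkar2b the larger difference fell in set 2. The skeletal muscle markers had a median difference of -1.81 in that set, with 0 of 14 called. Their mean was 5.68 and 10.9 in KO replicates 3 and 4, against 11.1 and 9.32 in WT replicates 3 and 4. Gnas, Adcy6 and Prkar2b each read lower in KO replicate 4 than in KO replicate 3. The values were 9.19 against 9.42 for Gnas, 9.80 against 10.7 for Adcy6 and 17.27 against 17.85 for Prkar2b. The part of muscle RNA in these 3 differences was not tested. Adcy6, an adenylyl cyclase inhibited by calcium, differed by -0.50 (SE 0.22; -0.26 without KO replicate 4). Its KO values both lay below its WT values in each set, as in 2.44% of all genes. Prkar2b, the regulatory subunit of protein kinase A most typical of fat, differed by -0.33 (SE 0.17; -0.15 without KO replicate 4). It read 18.17 on both KO arrays and 18.16 to 18.17 on the WT arrays of set 1, and 17.85 and 17.27 in KO, against 18.26 and 18.20 in WT, in set 2.

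Of the phosphodiesterases, which break down cyclic nucleotides, 14 of 15 were measured and 0 called, with a median difference of 0.043. Pde8a, which is specific for cyclic AMP, had the smallest unadjusted p of all listed genes. It read 9.78, 10.1, 11.2 and 10.9 in KO replicates 1 to 4, against 10.2, 10.5, 11.4 and 11.5 in WT replicates 1 to 4, with a difference of -0.40 (SE 0.12; -0.38 in set 1 and -0.42 in set 2). Both KO values lay below both WT values in each set, a pattern found in 2.44% of all genes. Pde4a, another enzyme of cyclic AMP, differed by -0.28 (SE 0.15; -0.17 without WT replicate 4 and -0.18 without KO replicate 4), and Pde1a, which calcium and calmodulin activate, by 0.30 (SE 0.19; 0.16 without WT replicate 1).

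Among receptor kinases, arrestins and RGS proteins, which end or dampen receptor signalling, 10 of 12 were measured, 0 called and the median difference was 0.00041. Arrdc3, an arrestin-like protein reported to bind beta receptors in fat, differed by 1.08 (SE 0.44; 0.69 without KO replicate 4). Rgs2, which restrains Gq, differed by 1.02 (SE 0.68), with WT replicate 3 at 11.6 beside 14.3 to 15.5 on the other WT arrays; without that array the difference was 0.23. Rgs5, an RGS protein of pericytes, differed by -0.31 (SE 0.21; -0.11 without KO replicate 1).

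For catecholamine synthesis, uptake and breakdown 10 of 13 genes were measured and 3 stood above background on all arrays, all of them on the clearance side. The list had 0 called and a median difference of 0.015. Maoa and Maob, the monoamine oxidases, differed by -0.14 (SE 0.13; -0.015 without KO replicate 2) and 0.028 (SE 0.27), and Slc22a2, an organic cation transporter, by -0.093 (SE 0.18). The value of Maob is the mean of -0.65 in set 1 and 0.71 in set 2, with no overlap of the genotypes in either set. Within the sets these did not pass (limma adjusted p = 0.335 and 0.115), nor did the difference between the sets (limma adjusted p = 0.0537). Of the cAMP-responsive genes 19 of 20 were measured, 0 called, and 14 of 19 differences lay above 0, beside 52.6% of all genes, with a median of 0.097 (-0.10 in set 1 and 0.40 in set 2). Per1, a clock gene with cAMP response elements, differed by 0.36 (SE 0.18; 0.23 without KO replicate 4). Irf4, a cold-induced transcription factor of brown fat, differed by 1.71 (SE 1.25; 0.69 without WT replicate 3). That is the mean of -1.54 in set 1 and 4.97 in set 2, with KO and WT parted in opposite directions. Elovl3, a fatty acid elongase induced by cold, differed by -0.49 (SE 0.38; -0.030 without KO replicate 4). Its differences were 0.058 in set 1 and -1.04 in set 2.

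Other receptors that couple to Gs offer a comparison with the adrenergic pair. Of 17, 15 were measured, 5 stood above background on all 8 arrays, 0 were called and the median difference was 0.045. Adcyap1r1, the receptor for the neuropeptide PACAP, read 4.19, 4.31, 5.87 and 5.72 in KO replicates 1 to 4, against 4.38, 4.44, 6.09 and 6.04 in WT replicates 1 to 4. KO lay below WT in each set, as in 2.44% of all genes, with a difference of -0.22 (SE 0.073). Tshr and Sctr, the receptors for thyrotropin and secretin, differed by 0.11 (SE 0.16) and 0.14 (SE 0.16). Gpr3, a receptor that is active without a ligand in brown fat, was not above background on any array. It was singled out after its values were seen because its KO values lay above its WT values in each set. Adra1b, Dbh and Prkca shared this pattern, found in 2.86% of all genes. The gap of Gpr3 was narrow, at 3.447 in KO replicate 2 against 3.437 in WT replicate 2. In set 2 it was 4.474 in KO replicate 4 against 4.456 in WT replicate 3. The difference was 0.097 (SE 0.071).

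**Figure D4:**
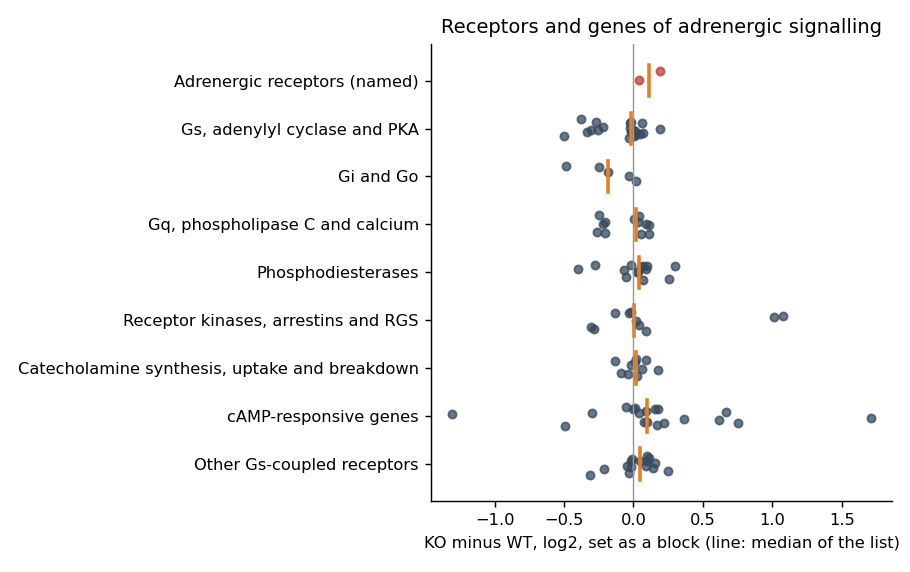
KO minus WT difference on the log2 scale, with the set as a block, for Adra1b and Adra2c (red) and for the measured members of 8 signalling lists (dark blue, 1 point per gene), with the median of each list as an orange line. The receptors lie at 0.19 and 0.038, the list medians lie between -0.19 and 0.097, and none of the genes passed the test.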

How the data were processed

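Per the labels' protocols, RNA of brown fat was biotinylated with an Affymetrix labelling kit and measured on 1 array per mouse. The deposited values are log2 expression values made by the authors with RMA in Affymetrix Expression Console (core-exon analysis), per the labels; the base of the logarithm follows from the highest values. The sources used here name no version, annotation or build. Leaving out controls, 65956 probe sets remained, of which 31266 had 1 gene, 1484 several and 33206 no name here. Of the first, 23602 took their symbol through a gene identifier in a RefSeq table and the rest kept the annotated symbol. RefSeq served for names and chromosomes only. Per gene the probe set with the highest mean was kept.

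KO minus WT was tested with limma 3.58.1 (R 4.3.3; lmFit, eBayes) over 8 arrays and all genes, without a filter, with the set as a block, and a gene was called at a Benjamini-Hochberg adjusted p under 0.05. The difference between the sets was the interaction term. Differences within a set came from a fit of all 8 arrays with a mean per genotype and set, so their SE pools both sets. The fit was tested on simulated data. Background was the 95th percentile of olfactory receptor genes on the array. Members, lists and the block were chosen with earlier results of these data known. Named genes were the members, Hilpda, 3 genes per signalling list by unadjusted p among those above background on all 8 arrays, and the genes most like a member above background on all arrays, of which there was none. Dbh, Gpr3, Nr4a2, Nr4a3 and Pde3a were added after their values were seen.

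Genotypes share replicate numbers. Measured as deviations from the group means, the KO and WT arrays of one number correlated at 0.701, 0.473, 0.479 and 0.61 (replicates 1 to 4), and at 0.107, 0.107, -0.0885 and -0.0885 with the set difference removed, so beyond the set a pairing by number is not shown. Nothing says whether the mice were littermates, and p-values measure the spread between these arrays. Their number limits the precision.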

Additional observations from a re-analysis of the deposited data

Results flagged for a closer look

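Neither receptor was flagged for an array far from the others of its genotype. The rule took the 4 values of a genotype with the set difference left in. The values of both receptors fall in a pair per set, so for them the rule says nothing about single arrays. Among the signalling genes named with the receptors, WT replicate 3 stood apart for Maob, at 14.4 beside 14.7 to 14.8 on the other 3 WT arrays. This was 1 of 64 groups of 4 arrays examined. The chance rate of about 5% holds for 4 values without a set difference, and does not apply to groups that split by set. For 4 of the 105 measured signalling genes the KO effect differed between the sets in limma at an adjusted p under 0.05. Over all genes this held for 153 of 30723 (0.498%). The lists were chosen with earlier results of these data known, so these shares were not compared. In all 4 genes KO and WT were parted in opposite directions in the sets. The effect in set 2 minus that in set 1 was 6.51 for Irf4 (adjusted p = 0.0459), 4.46 for Nr4a2 and 4.02 for Nr4a3, nuclear receptors induced by cyclic AMP, and -1.84 for Pde3a, a phosphodiesterase. Irf4 read 14.5 and 13.8 in KO, against 8.25 and 10.1 in WT, in set 2, and 9.59 and 8.83 in KO, against 11.1 and 10.4 in WT, in set 1. Neither Adra1b nor Adra2c showed such a turn.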

How the results depend on the processing

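Adra1b kept its direction under every alternative that tested it and passed an adjusted p of 0.05 under none (lowest adjusted p = 0.486): with 1 array left out the difference was 0.17 to 0.22, and under other blocks, normalizations and variance models 0.17 to 0.20. Its unadjusted p was 0.024, against 0.586 without a block and 0.0569 under the replicate block, and lay above 0.05 without KO replicate 1, KO replicate 2, WT replicate 1 or WT replicate 2. Adra2c stayed at 0.0062 to 0.063 with 1 array left out. The filter on low values removed both receptors, and with 1 probe set each the mean over probe sets was the same value. The replicate block called 0 genes and changed no call. Over all genes the count was 1 within set 2 and 0 with set 2 fitted alone, and 0 to 1 with 1 array left out, the 1 being without KO replicate 3. With 1 array left out, 25 of 32 named genes moved by over 1.5 times without changing sign under at least 1 omission. Of the 32, 16 changed sign somewhere, and the cause was not tested. Within set 1 the values were 0.085 (Hilpda), 0.0053 (Prkar2b), 0.14 (Gnai2), 0.076 (Pde4a), -0.23 (Rgs2), 0.048 (Slc22a2), -0.65 (Maob), -1.54 (Irf4), 0.058 (Elovl3), -2.06 (Nr4a2) and -1.26 (Nr4a3). Within set 2, also fitted alone, they were -0.14 (Pde1a), 0.0064 (Rgs5), -0.010 (Tshr) and -0.89 (Pde3a). Quantile normalization gave -0.0090 for Maob. With 1 array left out the ranges were -0.20 to 0.073 (Slc22a2), -0.18 to 0.18 (Maob), -0.026 to 0.28 (Sctr), -0.053 to 0.22 (Tshr), -0.50 to 0.74 (Nr4a2) and -0.24 to 0.28 (Pde3a). Neither receptor stood above background on all arrays, which limits both.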
